A study of Mus musculus with 9 samples.

Results

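Pericytes and smooth muscle cells, together called mural cells, wrap the vessels of the brain. Their genes were followed here in the cortex of mouse embryos labelled by their genotype at Cyfip2, whose protein belongs to the WAVE complex that starts branched actin assembly. The 10 genes Pdgfrb, Rgs5, Kcnj8, Abcc9, Higd1b, Cspg4, Des, Acta2, Tagln and Myh11 were taken by symbol from the 18820 genes of the deposited table, and all 10 were found. The libraries were 3 labelled as Cyfip2 knockout (KO), 3 as Cyfip2 heterozygote (Het) and 3 as wild type (WT), all of C57BL/6J cortex at embryonic day 18.5. The labels describe neither the allele nor the sex. They also do not say that replicates are different embryos, and p-values therefore measure a spread among libraries that may in part be technical. Y-linked RNA was present in some KO and Het replicates and absent in others, so the replicates of these genotypes did not all come from the same embryo.

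Pericytes sit on capillaries, inside the basement membrane they share with endothelial cells, and are drawn to growing vessels by the growth factor PDGF-B, which endothelial cells release and pericytes sense through the receptor Pdgfrb. Smooth muscle cells ring arteries and arterioles, both inside the cortex and on its surface in the meninges, and carry a contractile apparatus built from Acta2, Tagln, Myh11 and the intermediate filament Des. In the embryonic brain both cell types arrive with the vessels that grow inward from the surface. In RNA from bulk tissue, fewer cells of a type and less RNA per cell cannot be told apart.

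None of the 10 genes differed between genotypes past the threshold of an adjusted p of 0.05. All 10 had higher log2 means in KO than in WT libraries, with a median log2 fold change of 0.34, but no gene passed. Fold changes were also positive for 16 of 18 endothelial and 17 of 18 meningeal fibroblast genes, and for 8 of 17 paralogs of the mural genes. The direction of 5 of the 10 mural genes changed when the sex of the libraries, read from Y-linked RNA, entered the model. No WT library lacked Y-linked RNA, so that term rested on KO and Het libraries, Het replicate 3 among them. In those libraries a lack of Y-linked RNA coincided with olfactory bulb RNA, so sex and bulb RNA cannot be told apart there. Within the libraries with Y-linked RNA, 1 KO and 3 WT, 8 of 10 were higher in KO. The largest swing belonged to the contractile genes in 1 library, Het replicate 3, where Acta2 stood at 10.7 normalized counts against 90.5 to 423 in the other 8 libraries. The medians of the 4 contractile and the 6 pericyte-associated genes were both high in KO replicate 1 and Het replicate 1. Both were lowest in Het replicate 3. In KO replicate 2 only the pericyte-associated median was high, and in KO replicate 3 mainly the contractile one.

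Promoter sequence was available for 6 of the 10 genes, of which 4 are shown, 2 contractile and 2 pericyte-associated, so that both sets of genes are represented. Smooth muscle contractile genes are classically controlled through the CArG box, the site bound by serum response factor and its partner myocardin. Each sequence is the 250 bases before the RefSeq start of the gene (build GRCm38.p6), written 5′ to 3′ on the strand of the gene. Capitals mark CArG boxes, searched as CC, then a centre of 6 bases of which at least 5 are A or T, then GG, a form that reads alike on both strands.
Acta2 (chr19:34255374-34255623, minus strand): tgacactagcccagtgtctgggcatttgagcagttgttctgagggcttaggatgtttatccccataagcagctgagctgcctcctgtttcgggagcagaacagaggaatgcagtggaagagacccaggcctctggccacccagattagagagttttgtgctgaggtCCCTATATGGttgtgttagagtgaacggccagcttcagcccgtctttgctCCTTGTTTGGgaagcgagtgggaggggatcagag
Des (chr1:75360042-75360291, plus strand): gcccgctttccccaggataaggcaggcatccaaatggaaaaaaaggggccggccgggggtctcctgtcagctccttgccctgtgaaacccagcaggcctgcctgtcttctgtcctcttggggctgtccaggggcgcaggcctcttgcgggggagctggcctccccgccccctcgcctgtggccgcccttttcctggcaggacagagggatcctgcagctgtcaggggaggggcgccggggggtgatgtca
Rgs5 (chr1:169655251-169655500, plus strand): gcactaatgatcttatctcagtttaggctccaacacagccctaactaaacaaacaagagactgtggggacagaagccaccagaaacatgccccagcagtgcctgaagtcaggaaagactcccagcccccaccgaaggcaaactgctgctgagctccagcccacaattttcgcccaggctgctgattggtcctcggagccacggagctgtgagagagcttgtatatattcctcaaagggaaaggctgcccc
Kcnj8 (chr6:142571615-142571864, minus strand): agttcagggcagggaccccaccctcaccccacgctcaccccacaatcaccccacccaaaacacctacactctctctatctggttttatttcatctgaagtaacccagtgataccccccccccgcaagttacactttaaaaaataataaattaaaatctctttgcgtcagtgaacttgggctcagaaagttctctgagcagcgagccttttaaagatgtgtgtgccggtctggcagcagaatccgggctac

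Acta2 held 2 matches, each with 1 centre base that is not A or T. CCCTATATGG lay from 84 to 75 bases before the RefSeq start and CCTTGTTTGG from 34 to 25 bases before it. Among 32536 promoter windows of the same length, 8.59% held at least 1 such match and 0.661% held 2 or more. The windows of Des, Rgs5, Kcnj8, Abcc9 and Cspg4 held none. The GENCODE M21 annotation places some starts elsewhere. Its Acta2 gene reaches 34255590, inside the window, so both matches lie within the annotated gene. The Abcc9 and Cspg4 windows also run into their GENCODE genes. For Des the window ends before the GENCODE start, and the bases after its RefSeq start were not found near the beginning of its GENCODE transcripts. A match is only a description of these letters.

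In the GENCODE M21 annotation of GRCm38 all 10 genes are protein coding. Pdgfrb (ENSMUSG00000024620) spans 61045150 to 61085061 on chromosome 18, and Rgs5 (ENSMUSG00000026678) 169655501 to 169695813 on chromosome 1. Kcnj8 (ENSMUSG00000030247), at 142564837 to 142571614 on chromosome 6, and Abcc9 (ENSMUSG00000030249), at 142587862 to 142702315, are neighbours on the minus strand, 16.2 kb apart. Higd1b (ENSMUSG00000020928) lies at 102835849 to 102838040 on chromosome 11, and Cspg4 (ENSMUSG00000032911) at 56865033 to 56899870 on chromosome 9. Des (ENSMUSG00000026208) lies at 75360329 to 75368579 on chromosome 1, Acta2 (ENSMUSG00000035783) at 34241090 to 34255590 on chromosome 19, Tagln (ENSMUSG00000032085) at 45929619 to 45936058 on chromosome 9 and Myh11 (ENSMUSG00000018830) at 14194535 to 14291372 on chromosome 16. Between 0% and 1.41% of the 31-base words in the transcripts of these genes occurred in transcripts of another gene, the highest share being that of Abcc9, followed by Acta2 with 1.39%. Annotated genes on the opposite strand overlap Abcc9, Des and Tagln, and the strand setting of the counting was not stated in the material used here.

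Beyond genotype, the libraries differed in depth, sex and dissected tissue. Depth was estimated at 29.5 to 54.4 M reads, so that 1 read was worth 0.675 to 1.22 normalized counts. Cyfip2 was at 7900.3, 7522 and 8255 in KO, 8969, 9779 and 9882 in Het and 10169, 10345 and 11174 in WT, with no overlap between the groups (exact permutation p = 0.10 for each pair, two-sided, the smallest that 3 against 3 allows). The libraries labelled as knockout thus kept 74.7% of the WT mean of Cyfip2 RNA and the Het libraries 90.4%, so these values do not show a loss of the RNA. The cortical neuron genes Tbr1 and Neurod6 were at 8835 or more in every library. Olfactory bulb RNA was present in 4 libraries, KO replicates 1 and 2, Het replicate 1 and WT replicate 3, where the bulb gene Cdhr1 was at 2138 to 3436 against 21.8 to 53.1 in the other 5. The Y-linked gene Ddx3y was listed at 0 in KO replicates 1 and 2 and Het replicate 1, against 1394 to 1674 in the remaining 6 libraries. Het replicate 3 was low in meningeal fibroblast RNA, where the collagen gene Col1a1 was at 87.2 against 2206 to 5328 elsewhere.

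All 10 mural genes were above 0 in all 9 libraries, and all 10 passed the filter of a mean of 10 normalized counts. Per kilobase of annotated exon, the WT means ran from 932 normalized counts for Rgs5 to 7.95 for Myh11. After Rgs5 came Pdgfrb with 289, Kcnj8 with 155, Higd1b with 133 and Abcc9 with 119 per kilobase. Over the 3 WT libraries Higd1b overlapped both Kcnj8 and Abcc9, which did not overlap each other. Cspg4 (52.1) likewise overlapped both of its neighbours, Acta2 (70.5) and Tagln (42.6). Des (12.1) and Myh11 were lowest and overlapped in range, at 10.3 to 15.4 per kilobase for Des and 6.36 to 10.7 for Myh11. Several of these genes mark other cells as well: Cspg4, which encodes the NG2 proteoglycan, also marks oligodendrocyte precursors, and Des marks skeletal muscle. The skeletal muscle regulators Myod1 and Myog were at no more than 2.52 and 2.78 in any library. Cnn1, a late smooth muscle protein, and Myocd, the coactivator myocardin, were at no more than 5.54 and 6.25.

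**Figure D1:**
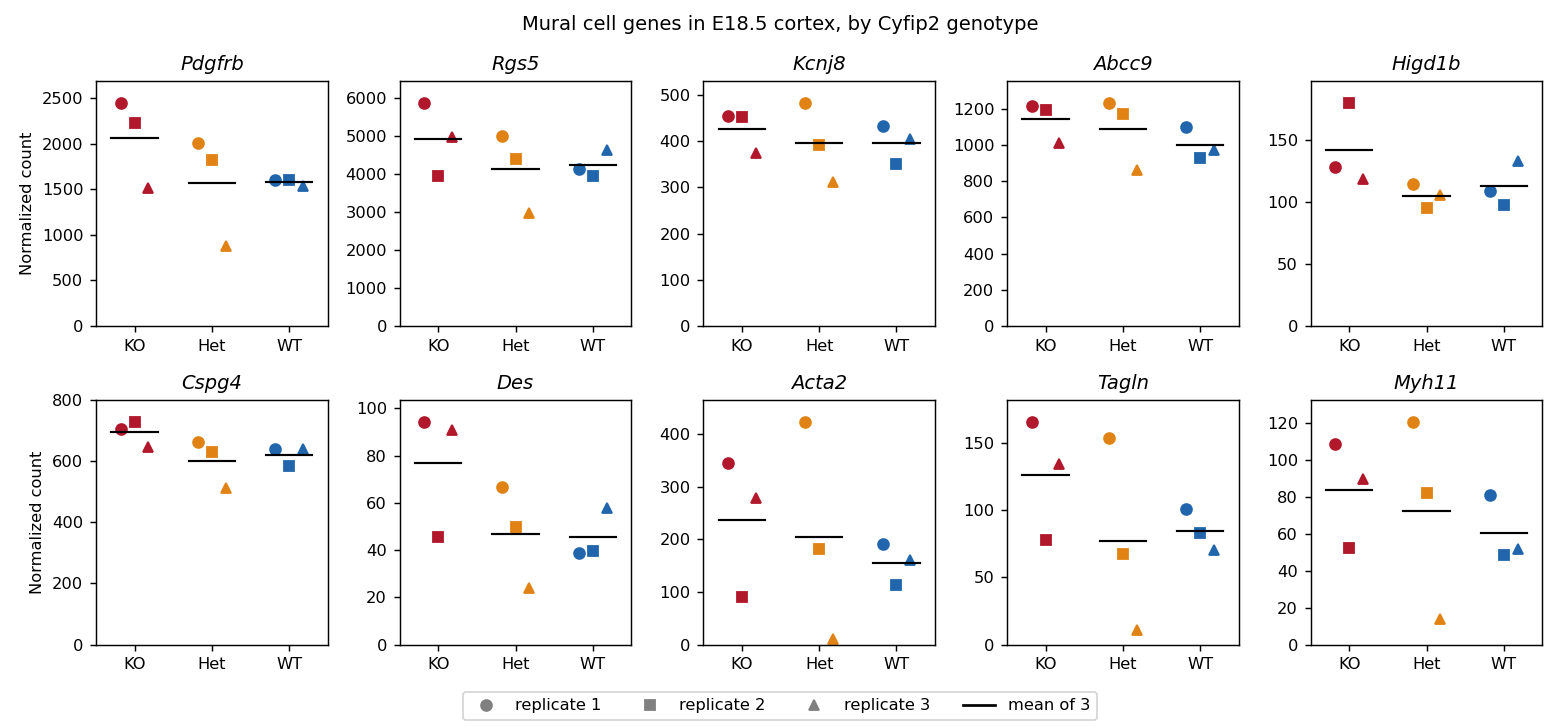
Normalized counts (y axis, linear, from 0) of the 10 mural genes in KO, Het and WT libraries. Each symbol is 1 library, its shape gives the replicate number and the bar is the mean of 3 libraries. Het replicate 3 is the lowest library for 9 of 10 genes, and the WT libraries of Pdgfrb lie close together between 1541 and 1606.

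Pdgfrb, the receptor for PDGF-B that pericytes need to be recruited, was at 2443, 2231 and 1516 normalized counts in KO, 2003, 1826 and 881 in Het and 1599.9, 1606 and 1541 in WT. KO replicates 1 and 2 and Het replicates 1 and 2 lay above all WT libraries, while KO replicate 3 lay just below them. Its WT libraries varied least of all 10 genes, with a coefficient of variation of 2.26%. In Het replicate 3 it stood at 55.6% of the WT mean.

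Rgs5, which shuts off G-protein signals in mural cells and is one of the most used pericyte markers, was at 5849, 3941 and 4962 in KO, 4996, 4374 and 2970.5 in Het and 4127, 3949.7 and 4632 in WT. KO replicate 2 was below all WT libraries here, although it was high in Pdgfrb. The means were 4917 ± 955 in KO, 4114 ± 1038 in Het and 4236 ± 354 in WT (SD, n = 3 each).

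Kcnj8 and Abcc9 encode the pore and the sulfonylurea receptor of the ATP-sensitive potassium channel of mural cells. Kcnj8 was at 454, 451 and 374 in KO, 482, 392 and 312 in Het and 432, 351 and 404 in WT. Abcc9 was at 1217, 1192 and 1012 in KO, 1229, 1169.9 and 861 in Het and 1098, 925 and 972 in WT. Both subunits were highest in Het replicate 1 and lowest in Het replicate 3, and for both the 3 groups overlapped.

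Higd1b, a pericyte marker of the hypoxia-inducible domain family, was at 128, 179.7 and 119 in KO, 115, 95.1 and 106 in Het and 109, 97.5 and 133 in WT. It was the only one of the 10 that was not lowest in Het replicate 3, where it kept 86.9% of the mean of the other 8 libraries. Its highest value, in KO replicate 2, stood apart from the others, and all KO libraries were above all Het libraries.

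Cspg4 was at 707, 729 and 647 in KO, 662, 629.8 and 513 in Het and 639.7, 585 and 641 in WT. All 3 KO libraries lay above all 3 WT libraries, the narrowest gap being 647 in KO replicate 3 against 641 in WT replicate 3. Of the oligodendrocyte precursor list, 7 of 11 tested genes had a positive KO to WT log2 fold change, with a median of 0.01. Their summed level was 9033 to 12958 in KO, 8842 to 14141 in Het and 9454 to 13644 in WT, and their part in the Cspg4 values was not tested. Tnr, named here for its level, had the highest group means of this list, 5809 in KO, 5962 in Het and 5650 in WT. The sums therefore weigh Tnr most.

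Among the contractile genes, Acta2, smooth muscle actin, was at 344, 90.5 and 278 in KO, 423, 181 and 10.7 in Het and 191, 112 and 161 in WT. KO replicates 1 and 3 and Het replicate 1 were above all WT libraries, KO replicate 2 was below them, and Het replicate 3 held 6.91% of the WT mean. Tagln, the actin-bundling protein transgelin, was at 166, 77.7 and 134 in KO, 153, 67.0 and 10.8 in Het and 101, 83.1 and 69.9 in WT. Myh11, the heavy chain of smooth muscle myosin, was at 109, 52.3 and 90.0 in KO, 121, 82.2 and 13.8 in Het and 81.0, 48.3 and 51.8 in WT. These 3 genes shared their high libraries, KO replicates 1 and 3 and Het replicate 1, and their lowest, Het replicate 3.

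Des, desmin, was at 94.3, 45.5 and 90.8 in KO, 66.8, 49.6 and 23.9 in Het and 38.8, 39.5 and 57.7 in WT. It shared the high libraries of the other contractile genes, but in Het replicate 3 it kept 52.7% of the WT mean. In WT the coefficient of variation over libraries was 18.4% to 29.8% for the 4 contractile genes and 2.26% to 16.0% for the 6 pericyte-associated ones.

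**Figure D2:**
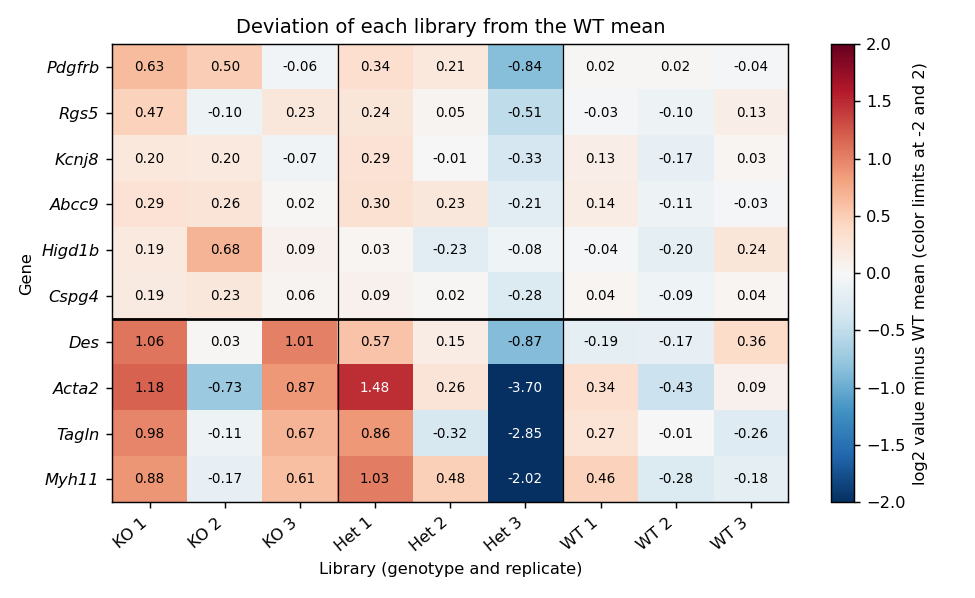
Heat map of the log2(value + 1) of each gene (rows) in each library (columns: KO, Het and WT replicates 1 to 3) minus the mean of the 3 WT libraries, with the difference printed in each cell and colors limited to -2 and 2. The contractile genes below the line are high in KO replicates 1 and 3 and Het replicate 1, and Acta2, Tagln and Myh11 fall outside the color limits in Het replicate 3 at -3.70, -2.85 and -2.02.

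KO was first set against WT. Values were taken as log2(value + 1), limma fitted 1 mean per genotype over all 9 libraries, and p-values were adjusted after Benjamini and Hochberg over 15069 genes. Positive log2 fold changes were found for 10 of the 10 mural genes, against 48.4% of all genes tested, and the median was 0.34 over the 10 and 0.00 over all genes. The lean was not particular to mural genes: 16 of 18 endothelial, 17 of 18 meningeal fibroblast and 11 of 12 microglia and macrophage genes were positive. Among paralogs of the mural genes 8 of 17 were positive. Of the 10 mural genes Des had the largest, 0.70 ± 0.43 (SE), followed by Tagln with 0.51 ± 0.80, Myh11 with 0.44 ± 0.71 and Acta2 with 0.44 ± 1.15. Among the pericyte-associated genes Pdgfrb had 0.35 ± 0.30, Higd1b 0.32 ± 0.21, Rgs5 0.20 ± 0.20, Abcc9 0.19 ± 0.14, Cspg4 0.16 ± 0.11 and Kcnj8 0.11 ± 0.17. Not one passed: the adjusted p was 1.00 for each of the 10, and limma called 0 of all genes, 0% of those tested. Cyfip2 itself had -0.42 ± 0.06 with an adjusted p of 0.678 by limma, and was not called either. At an unadjusted p under 0.05 limma had 178 genes (1.18%), 0.544% higher and 0.637% lower in KO, and 0 of the 10.

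The 95% intervals show what these 3 libraries a group could resolve. For Cspg4 the interval ran from -0.09 to 0.41 and for Abcc9 from -0.13 to 0.52. For Acta2 it ran from -2.18 to 3.06, since the spread estimate is shared by the genotypes and takes in Het replicate 3. Without that library the Acta2 fold change was 0.44 ± 0.52 and that of Des 0.70 ± 0.33, and the adjusted p stayed at 1.00 for both. KO and WT libraries did not overlap, KO being higher, for 1 of the 10 genes, Cspg4, against 3.17% of all genes, and KO was lower without overlap for 0 of the 10, against 3.3% (exact permutation p = 0.10 for Cspg4, two-sided, the smallest possible).

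With the sex of the libraries as a covariate the median over the 10 genes was -0.03, and Pdgfrb, Kcnj8, Acta2, Tagln and Myh11 had negative values. Without KO replicate 1 the median was 0.18, without WT replicate 2 it was 0.22, and with olfactory bulb RNA as a covariate 0.18. Within the libraries with bulb RNA, 2 KO and 1 WT, the median was 0.19 with 10 of 10 genes positive. Within those without it, 1 KO and 2 WT, the median was 0.25 with 8 of 10 positive. Within the libraries with Y-linked RNA, 1 KO and 3 WT, it was 0.16 with 8 of 10 positive. There Acta2 had 0.87, Tagln 0.67 and Myh11 0.61, while Pdgfrb had -0.061 and Kcnj8 -0.074. No WT library lacked Y-linked RNA, so the sex term was set by KO and Het libraries only, Het replicate 3 among them. In those libraries bulb RNA was present where Y-linked RNA was lacking and absent elsewhere, so sex and bulb RNA cannot be told apart there.

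**Figure D3:**
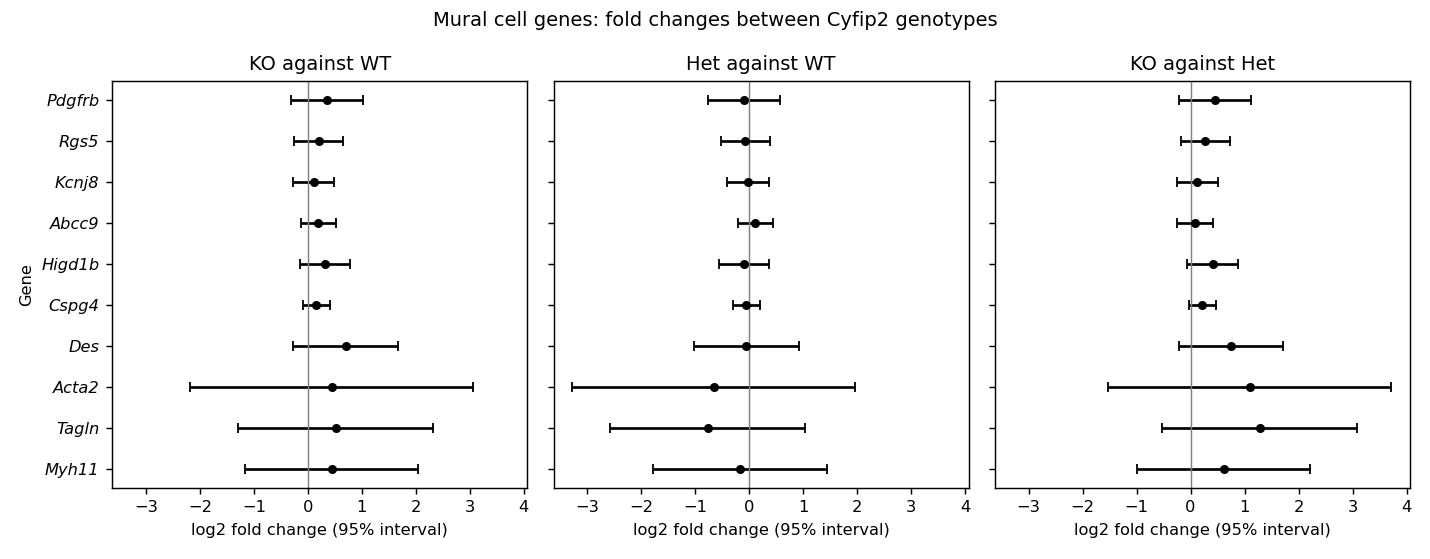
Log2 fold changes (x axis) of the 10 mural genes (rows) for KO against WT, Het against WT and KO against Het, as points with 95% intervals from limma. All 30 intervals include 0, and they are widest for Acta2, from -2.18 to 3.06 for KO against WT.

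Between Het and WT no mural gene passed the threshold either. The log2 fold change was negative for 9 of 10 genes, with a median of -0.08, where 46.2% of all genes were positive and the median over all genes was -0.01. Tagln had -0.77 ± 0.80, Acta2 -0.66 ± 1.15, Myh11 -0.17 ± 0.71 and Des -0.05 ± 0.43. Pdgfrb had -0.10 ± 0.30, Higd1b -0.09 ± 0.21, Rgs5 -0.07 ± 0.20, Cspg4 -0.06 ± 0.11 and Kcnj8 -0.02 ± 0.17, while Abcc9, the 1 positive gene, had 0.11 ± 0.14. Every adjusted p was 1.00, 0 genes were called over all genes (0%), and 0 of the 10 were among the 242 genes (1.61%, of which 0.962% higher and 0.644% lower in Het) at an unadjusted p under 0.05. The groups overlapped for all 10 genes, while Het lay above WT without overlap for 3.36% of all genes and below it for 3.31%. Without Het replicate 3 the median was 0.27, 9 of the 10 genes were positive, and the adjusted p was 0.996 for each by limma.

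KO against Het, the comparison between the mutant genotypes, gave positive values for 10 of 10 genes, against 50.4% of all genes, with a median of 0.43 over the 10 and 0.00 over all genes. The contractile genes were largest, Tagln with 1.28 ± 0.80, Acta2 with 1.10 ± 1.15, Des with 0.75 ± 0.43 and Myh11 with 0.61 ± 0.71. Pdgfrb had 0.45 ± 0.30, Higd1b 0.41 ± 0.21, Rgs5 0.27 ± 0.20, Cspg4 0.21 ± 0.11, Kcnj8 0.13 ± 0.17 and Abcc9 0.08 ± 0.14. The adjusted p values were 0.942 to 0.963 by limma, which called 0 of all genes (0%), and 0 of the 10 were among the 541 genes (3.59%, of which 1.42% higher and 2.17% lower in KO) with an unadjusted p under 0.05. With the replicate number as a block those were 984 genes, again with 0 of all genes called. KO libraries lay above Het libraries without overlap for 1 of the 10 genes, Higd1b, against 3.15% of all genes, and below them for 0 of the 10, against 4.68%. Without Het replicate 3 the median was 0.07 and Acta2, Myh11, Kcnj8 and Abcc9 had negative values. With sex as a covariate the median was 0.28, and within the libraries that lacked Y-linked RNA, 2 KO and 1 Het, it was -0.04 with 3 of 10 genes positive. Within the libraries with Y-linked RNA, 1 KO and 2 Het, it was 0.36 with 10 of 10 positive. Bulb RNA split the KO and Het libraries in the same way.

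The contractile and pericyte-associated medians were both high in KO replicate 1 and Het replicate 1 and both lowest in Het replicate 3. In KO replicate 2 only the pericyte-associated median was high, and in KO replicate 3 mainly the contractile one. The contractile minus pericyte-associated difference was 0.77, -0.38 and 0.73 in KO replicates 1, 2 and 3. It was 0.68 in Het replicate 1 and -2.13 in Het replicate 3. The median of the 4 contractile genes, on the log2 scale relative to the WT mean, was 1.02, -0.14 and 0.77 in KO replicates 1, 2 and 3, 0.95, 0.20 and -2.43 in the Het replicates and 0.30, -0.22 and -0.04 in the WT replicates. For the 6 pericyte-associated genes it was 0.25, 0.24 and 0.04 in KO, 0.27, 0.03 and -0.31 in Het and 0.03, -0.10 and 0.04 in WT. In KO replicate 2, 5 of 6 pericyte-associated genes were above all WT libraries and 0 of 4 contractile genes were, against 27.8% of all genes tested in that library. In KO replicate 3 it was 2 of 6 and 4 of 4, against 26.6% of all genes. KO replicate 1 and Het replicate 1 were above all WT libraries for 5 of 6 and 4 of 4 genes each, against 28.1% and 27.0% of all genes.

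Endothelial cells line the same vessels, and their 18 listed genes moved partly with the mural genes. Their median was 0.61, -0.10 and 0.20 in the KO replicates, 0.31, 0.08 and -0.64 in the Het replicates and -0.03, -0.07 and 0.05 in the WT replicates. The difference of the pericyte-associated minus the endothelial median was -0.36, 0.34 and -0.16 in KO, -0.04, -0.05 and 0.33 in Het and 0.06, -0.03 and -0.01 in WT. The summed levels did not show these differences in the KO libraries. The pericyte-associated sum was 43.9%, 43.8% and 44.9% of the endothelial sum in KO, with all 3 KO libraries inside the WT range. It was 43.3%, 45.2% and 49.2% in Het and 47.5%, 43.6% and 44.9% in WT. Rgs5 was the largest part of the pericyte-associated sum, 5849 of 10799 in KO replicate 1 and 3941 of 8723 in KO replicate 2. The sums therefore weigh Rgs5 most, unlike the medians. Globin RNA differed too, with Hbb-bs at 30474, 8460.0 and 10797 in KO, 26517, 20305 and 19603 in Het and 19954, 16458 and 12798 in WT, and its part in these values was not tested.

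In Het replicate 3 the 10 genes were low to unequal degrees. Relative to the mean of the other 8 libraries it held 4.81% of Acta2, 10.1% of Tagln, 17.3% of Myh11 and 39.6% of Des. It held 47.7% of Pdgfrb, 64.5% of Rgs5, 74.9% of Kcnj8, 78.1% of Abcc9, 78.2% of Cspg4 and 86.9% of Higd1b. The same share had a median of 3.19% over 18 meningeal fibroblast genes, 55.1% over 18 endothelial genes, 49.2% over 12 microglia and macrophage genes and 100% over all genes tested. The 10 genes were lowest in this library in 9 cases, against 18.8% of all genes. Summed meningeal fibroblast RNA was 18447 to 36420 in KO, 1277 to 29824 in Het and 15937 to 19972 in WT, with Dcn at 23.9 in Het replicate 3 against 898 to 2227 elsewhere, and its part in the contractile values was not tested.

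**Figure D4:**
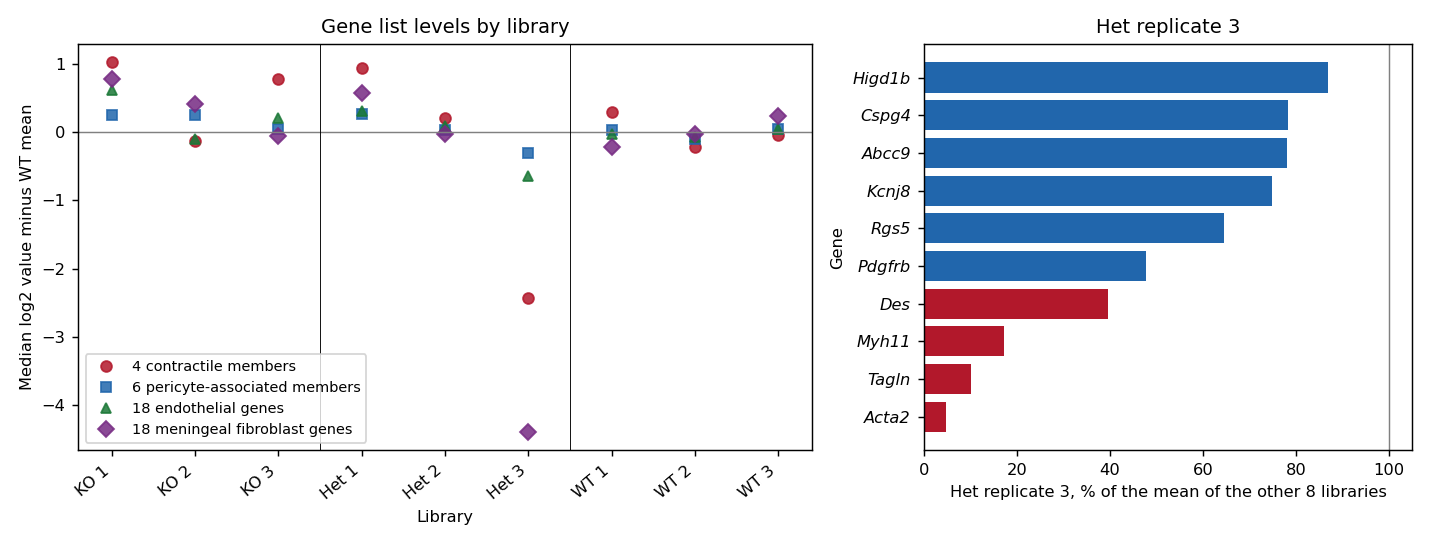
Left, the median log2 value minus the WT mean (y axis) in each library for the 4 contractile genes, the 6 pericyte-associated genes, 18 endothelial genes and 18 meningeal fibroblast genes. Right, Het replicate 3 as a percentage of the mean of the other 8 libraries for each mural gene, contractile genes in red and pericyte-associated genes in blue. The contractile median of -2.43 in Het replicate 3 lies between the meningeal median of -4.39 and the endothelial median of -0.64.

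Other genes of mural cells and of their recruitment were tested in the same fit, with 0 genes called in any of the 3 comparisons. Of 20 other mural markers, 20 had positive KO to WT log2 fold changes, with a median of 0.25. Art3, an ecto-ADP-ribosyltransferase family gene, was at 53.5 ± 20.9 in KO and 35.5 ± 5.48 in WT (SD, n = 3 each), and S1pr3, a receptor for the lipid sphingosine 1-phosphate, at 766 ± 93.7 in KO and 644 ± 107 in WT. In Het against WT 14 of the 20 were negative, with a median of -0.05. Of 17 tested genes of the contractile apparatus and its SRF-myocardin control, 14 were positive in KO against WT (median 0.21), and the smallest p values were those of the SRF coactivator Mrtfb with 0.13 ± 0.07 and the integrin Itga8 with 0.57 ± 0.39. Actg2, the enteric smooth muscle actin, chosen here for its values, was at 2.15 in Het replicate 3 and 5.73 to 45.7 in the other 8 libraries.

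Of the 22 genes of pericyte recruitment signalling, 14 were positive in KO against WT, with a median of 0.15. Eng, the endothelial TGF-beta coreceptor endoglin, was at 1644 ± 231 in KO and 1221 ± 103 in WT, with a log2 fold change of 0.42 ± 0.18. Pdgfb, the ligand of Pdgfrb, was at 540.1 ± 69.2 in KO and 431 ± 61.5 in WT, with 0.33 ± 0.20. Both had an adjusted p of 1.00 by limma. Of 18 endothelial genes, 16 were positive, with Flt1, a VEGF receptor, at 0.43 ± 0.21 and Ocln, the tight junction protein occludin, at 0.49 ± 0.26.

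Among the 17 tested paralogs of the mural genes, 8 were positive and 9 negative in KO against WT, with a median of -0.01. Kcnj11 encodes the neuronal counterpart of the Kcnj8 pore and was at 461 ± 102 in KO, 626 ± 54.9 in Het and 607 ± 36.6 in WT. Its KO to WT log2 fold change was -0.42 ± 0.15, with an adjusted p of 1.00 by limma. Tagln3, the neuronal relative of Tagln, had -0.14 ± 0.08. In Het replicate 3 these paralogs had a median share of 103% of the other 8 libraries.

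The remaining lists described other cell types and tissues, also with 0 genes called in any comparison. In KO against WT 17 of 18 meningeal fibroblast genes were positive (median 0.32, with Lama1 at 0.33 ± 0.50 and Spp1 at -0.49 ± 0.43) and 11 of 12 microglia and macrophage genes (median 0.11, with the microglial purinergic receptor P2ry12 at 0.30 ± 0.16 and Csf1r at 0.20 ± 0.32). The oligodendrocyte precursor genes with the smallest p were Sox10 (0.66 ± 0.50) and Matn4 (1.06 ± 0.92). Skeletal muscle genes were positive in 2 of 5, with Casq1 at -0.27 ± 0.22 and Chrna1 at -0.30 ± 0.33, and their sum was 211 to 242 in KO, 210.1 to 295 in Het and 233 to 258 in WT. Olfactory bulb genes were positive in 5 of 10 (Th 2.39 ± 2.00, Tbx21 1.23 ± 1.45) and choroid plexus genes in 2 of 8 (Kcnj13 -0.45 ± 0.52, Otx2 -1.05 ± 1.25). Erythroid genes were positive in 3 of 7 (Slc4a1 0.82 ± 0.70) and Y-linked genes in 0 of 4 (Kdm5d -2.29 ± 1.06, Uty -2.03 ± 0.96).

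The genes nearest to each set in pattern were found by the root mean square difference, over the 9 libraries, between their centred log2 values and the median of the set. For the pericyte-associated genes these were Lpp (0.05), Atl3 (0.06), Tpm4 (0.06), Rdh10 (0.06) and Myh9 (0.07). Kcnj8, Cspg4 and Abcc9 differed from that median by 0.06, 0.06 and 0.07 and Pdgfrb by 0.26. For the contractile genes they were Fbln5 (0.25), Ugt1a7c (0.29), Npr1 (0.29), Tfap2a (0.29) and Col18a1 (0.30), where Myh11 differed by 0.19, Tagln by 0.24, Acta2 by 0.49 and Des by 0.56. Fbln5, which encodes an elastic fibre protein, was at 393, 248 and 296 in KO, 389.95, 298 and 46.3 in Het and 232, 193 and 205 in WT. Lpp, a focal adhesion protein, was at 1227, 1197 and 1040.2 in KO, 1233, 1002 and 776 in Het and 1027, 961 and 1077 in WT.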

How the data were processed

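A TruSeq Stranded mRNA kit was used for the libraries, per the labels' protocols. The deposited values are a signal per gene, read from its values as normalized counts, with totals of 36.0 to 38.6 M per library. Salmon 0.11.2, DESeq2 1.19.11, R 3.6.0 and GRCm38 are named, without role or order, per the submitters' processing notes. Only 60.8% to 78.2% of low values lay within 0.1 of a whole number of reads, so count tests were not used.

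The fits used log2(value + 1) for genes with a mean of at least 10, limma 3.58.1 in R 4.3.3 (lmFit, eBayes with a trend) over all 9 libraries. Fold changes on this scale understate those of low genes. The 10 genes and the 13 lists were chosen with earlier results of these data known, and genes named from a list are the 2 with the smallest p in KO against WT, of which 1 is not reported here. A list's level in a library is the median over its tested genes of log2(value + 1) minus the WT mean. Symbols were found for 18783 of 18820 gene IDs. Of 183 listed genes, 181 were in the table. Sex was read from Ddx3y and bulb RNA from Cdhr1. Same-numbered KO and Het libraries had correlated deviations from their genotype means (0.453, 0.104 and 0.469 across genes for replicates 1, 2 and 3). Differently numbered KO and Het libraries correlated by up to 0.146, above the value for replicates 2. The main fits and their intervals did not use pairs. The replicate number entered only as a block in an alternative setting. No label states such a pairing. KO and Het replicate 1 both lacked Y-linked RNA and held bulb RNA, and both replicates 3 the reverse, and the part of this in the correlations was not tested.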

Additional observations from a re-analysis of the deposited data

How the results depend on the processing

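Over 690 fits of the 10 genes, under all settings and in 3 comparisons, 0 gave an adjusted p under 0.05, and the smallest was 0.535. The numbers of genes called over all genes stayed at 0 except that limma called 1 gene in Het against WT and 1 in KO against Het when only the compared groups were fitted, 2 in Het against WT when only libraries with Y-linked RNA were used, and between 0 and 1 in each comparison when 1 library was left out. None of these was a mural gene, and the cause was not tested.

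With sex as a covariate, in KO against WT the median over the 10 genes moved to -0.032, and the log2 fold changes reversed to -0.074 for Pdgfrb, -0.14 for Kcnj8, -0.41 for Acta2, -0.22 for Tagln and -0.076 for Myh11. In KO against Het, Abcc9 reversed to -0.0083. Pdgfrb and Kcnj8 also reversed in KO against WT with only Y-linked libraries (-0.061 and -0.074) and with only libraries without bulb RNA (-0.080 and -0.057). In Het against WT, Kcnj8, Higd1b and Des reversed to 0.051, 0.0032 and 0.067 under quantile normalization and Abcc9 to -0.0059 without bulb libraries. The cause of these reversals was not tested.

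Leaving out 1 library at a time changed signs in Het against WT, with ranges of -0.32 to 0.27 for Pdgfrb, -0.23 to 0.15 for Rgs5, -0.17 to 0.14 for Kcnj8, -0.19 to 0.029 for Higd1b, -0.13 to 0.055 for Cspg4, -0.36 to 0.36 for Des, -1.72 to 0.87 for Acta2, -1.58 to 0.27 for Tagln and -0.77 to 0.75 for Myh11. In KO against Het the ranges that crossed 0 were -0.077 to 0.18 for Abcc9, -0.032 to 0.28 for Kcnj8, -0.43 to 2.16 for Acta2 and -0.31 to 1.21 for Myh11. In KO against WT 0 of the 90 such values changed sign.

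Replicate numbers did not pair KO or Het with WT libraries (correlations of -0.01, 0.06 and -0.03, and of -0.07, 0.25 and 0.03). With the replicate number as a block limma called 0 genes in each of the 3 comparisons and changed no other call, and genes at an unadjusted p under 0.05 numbered 382 in KO against WT and 493 in Het against WT. Depth limits Acta2 and Tagln in Het replicate 3, where 1 read was worth 1.08 normalized counts.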
